A study of Drosophila melanogaster with 36 samples.

Results

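Transcripts of 10 Drosophila genes were at least 2-fold apart between flies carrying mutant human SOD1 and their controls at every age and with every driver tested, for CG13551 at 1 of its 2 probe sets. CG7900, CG2772, Tsen34, CG15818 and CG10725 were higher in mutant flies, and CG13551, CG17147, CG13313, Trf5 and Srg2 were lower. They were chosen on these same arrays, as genes that differed in all 6 comparisons of G85R with dSOD1, so those differences are described here without a test. The 10 genes are covered by 11 probe sets that the array annotation assigns to a single gene, out of 18769 fly probe sets and 11982 genes measured. CG13551 has 2 such probe sets, of which 1629019_s_at differed by at most 1.21-fold, and each of the other genes has 1.

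Males carried a UAS transgene for wild-type Drosophila SOD1 (dSOD1, the control) or for human SOD1 with the ALS-linked mutation G85R (G85R). Amyotrophic lateral sclerosis (ALS) is a fatal loss of motoneurons, and SOD1 is a superoxide dismutase mutated in some families. Transgenes were driven by D42-Gal4 in motoneurons (MN), by M1B-Gal4 in glia, or by both drivers together (MN+glia), and flies were aged to 5 days (5d) or 45 days (45d). Each of the 12 groups has 3 Affymetrix arrays, and each array was made from a pool of 40 whole adult males, so the driven cells are a small part of the RNA. All groups carry a Gal4 driver and a UAS transgene, and no driver-only group is among the arrays. A transgene and the genetic background of its UAS line therefore cannot be told apart in any comparison, and neither can a driver and the background of its Gal4 line. In RNA of whole flies, fewer cells of a type and less RNA per cell cannot be told apart either.

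By role, the genes described here come from several families, and CG10725 and CG17147 share theirs. CG7900 is predicted to be a fatty acid amide hydrolase, one of the enzymes that break down lipid amides, and CG2772 is a predicted lipase. CG10725 and CG17147 code for proteins with chitin-binding domains of the peritrophin type, the kind found in the lining of the gut and in cuticle. CG15818 codes for a protein of the C-type lectin family, whose members bind sugars. Tsen34 is a subunit of the endonuclease that cuts introns out of tRNA precursors. CG13551 codes for a predicted inhibitor of the mitochondrial ATP synthase, a small protein that stops the enzyme from running backward and consuming ATP. No role is given here for CG13313, Trf5 or Srg2.

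All values are log2 expression after robust multiarray averaging (RMA), the scale on which a step of 1 is a doubling, and the table holds no call of presence or absence. Levels of different probe sets are not comparable. As markers of whole male flies, the accessory gland peptide SP stood between 12.28 and 13.10 on the 36 arrays, the glial gene repo between 7.81 and 8.76, and the eggshell gene Cp16 between 3.65 and 4.46. Of 5 accessory gland markers, 2 were called lower in G85R flies in 4 or more of the 6 comparisons, as was 1 of 5 testis markers, while 1 of 3 midgut markers was called higher (1.92% of all probe sets were called lower and 1.69% higher in 4 or more). Per array, the mean over the accessory gland markers ran from 11.88 to 12.73 in dSOD1 flies and from 11.65 to 12.72 in G85R flies. The part of these tissues in the results was not tested. Among the G85R flies of the combined driver at 5d, replicate 2 carried the sign of degraded RNA. Its 3′ actin probe set exceeded the 5′ one by 5.72, against 2.39 to 3.25 on the other 35 arrays, and the changes and differences of the 10 genes that it enters are also given without it. Ranges over arrays, shares of variation and correlations include it. Precision is limited by 3 arrays per group.

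Of the 11 probe sets, 10 were at least 2-fold apart in the same direction in all 6 comparisons, as were 17 of all 18769 probe sets (0.0906%). A limma adjusted p of at most 0.05 in all 6 was reached by 16 of those 17 (0.0852%), the 10 among them. These shares are printed for scale only, since the comparisons chose the genes. The smallest difference of a probe set just inside the limit was 1.003 for CG15818 and 1.02 for CG31380, and just outside it 0.998 for CG18233 and 0.976 for a probe set without a gene symbol. The other probe sets inside the limit, those of lola, CG4757, CG8012, CG31380 and CG31883 and 2 without a gene symbol, are not described here.

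**Figure D1:**
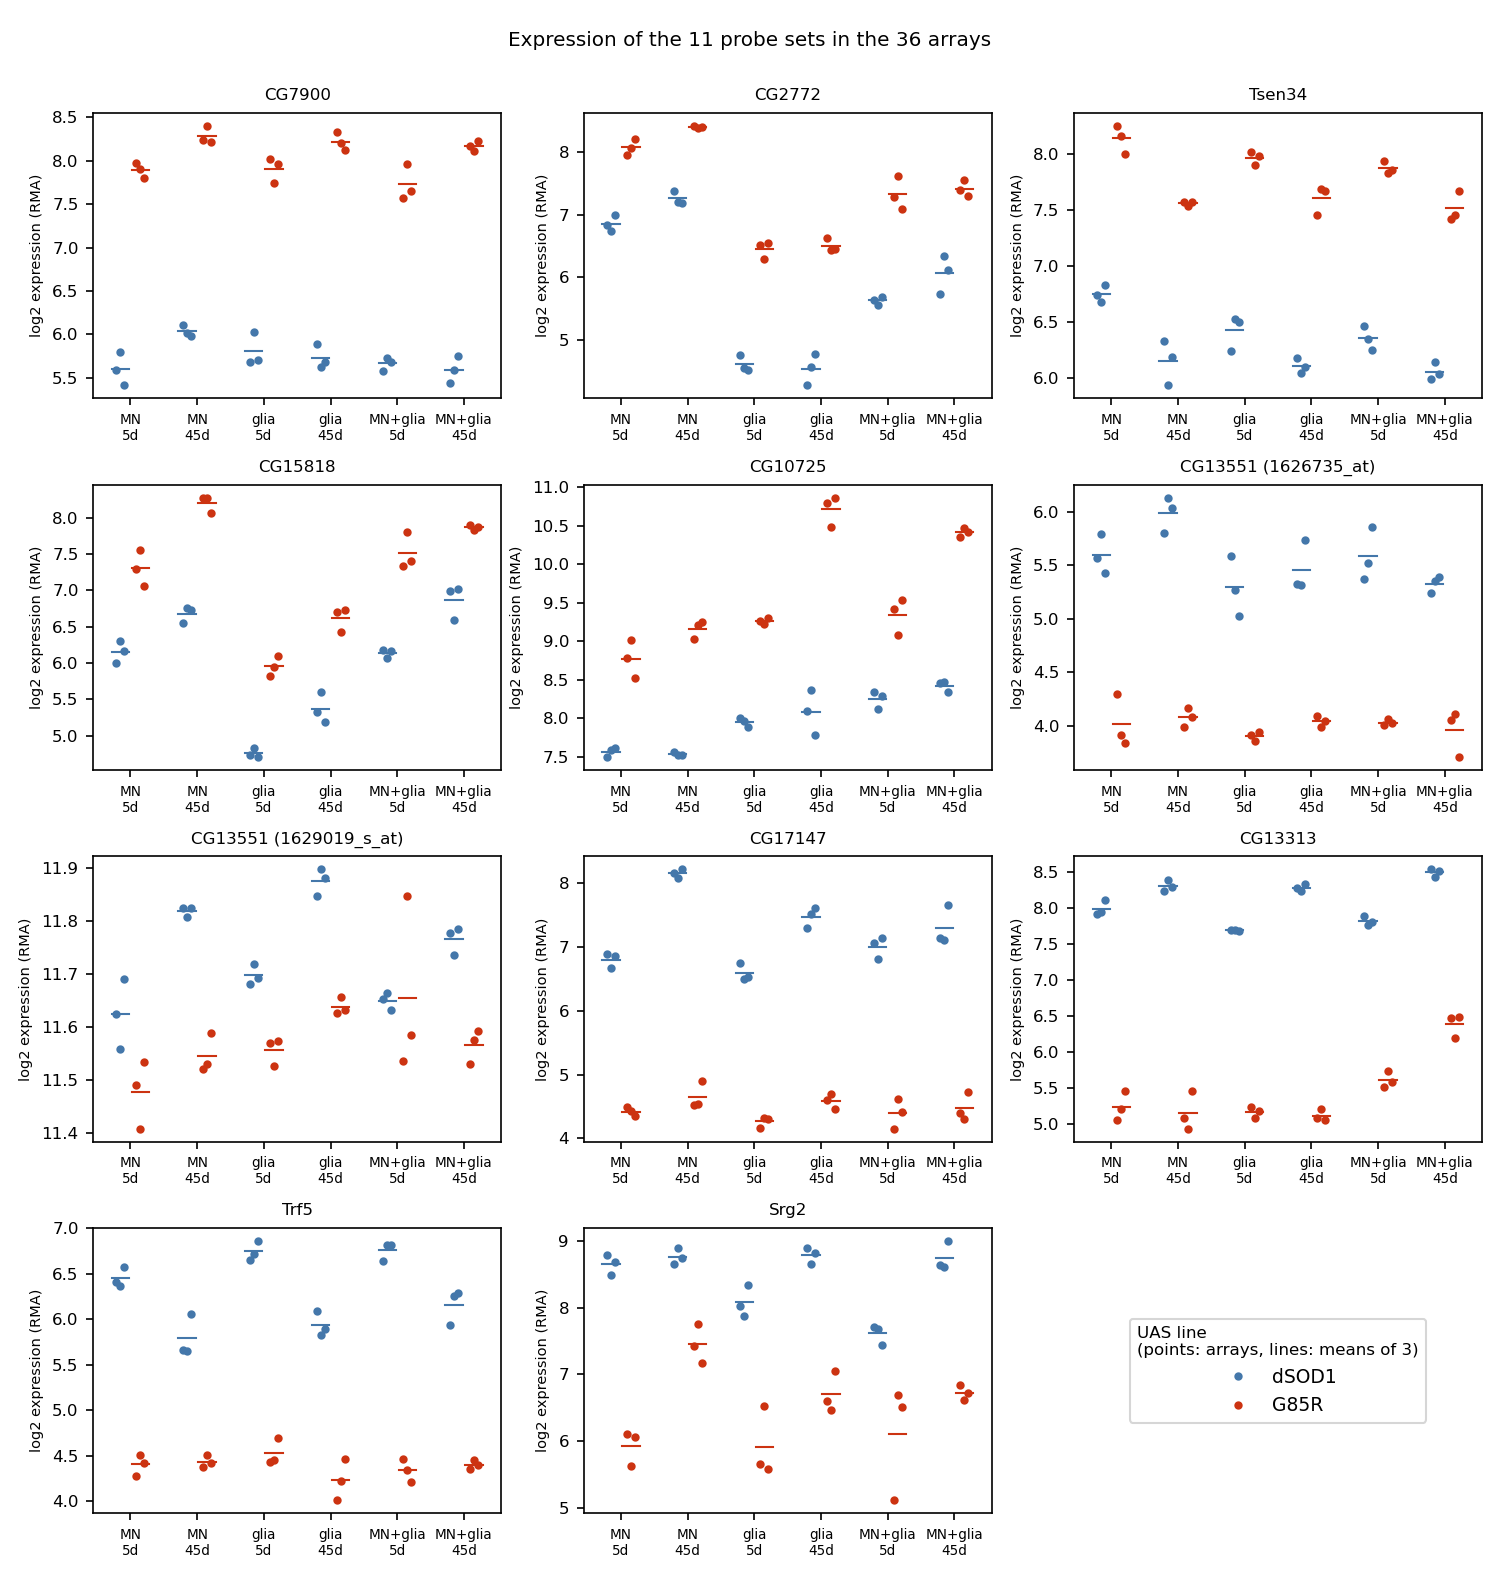
RMA log2 expression (vertical axis, its own range in each panel) of each of the 11 probe sets on each array (points) with the mean of 3 arrays (lines), for dSOD1 (blue) and G85R (red) flies in the 6 combinations of driver and age. CG7900 lies between 5.41 and 6.11 on all dSOD1 arrays and between 7.57 and 8.40 on all G85R arrays, whereas CG2772 also shifts with the driver and CG10725 is higher at 45d in G85R flies.

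By the mean of the 6 differences, CG7900 was the highest of the 10 genes in mutant flies relative to controls. Over the 18 dSOD1 arrays it ran from 5.41 to 6.11 with a median of 5.69, and over the 18 G85R arrays from 7.57 to 8.40 with a median of 8.06. The lines were 1.45 apart at their closest arrays. The 6 differences lay between 2.06 (MN+glia at 5d) and 2.57 (MN+glia at 45d), each with an SE of 0.11, and their mean equals a 4.90-fold difference. Without the degraded array the MN+glia difference at 5d was 1.94, and its step to 45d 0.63. With the driver in glia or in MN+glia the difference was larger at 45d than at 5d, by 0.39 and 0.51 (SE 0.15), and in MN it moved by -0.04.

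Tsen34 showed the most even difference of the 10. In MN flies its 3 arrays read 6.74, 6.68 and 6.83 in dSOD1 and 8.25, 8.16 and 7.997 in G85R at 5d. At 45d they read 6.33, 5.93 and 6.19 in dSOD1 and 7.57, 7.53 and 7.57 in G85R. Both lines were thus lower at 45d, by similar steps. The 6 differences spanned 1.39 to 1.54 (SE 0.090), a range of 0.15, and the change of the difference with age was -0.06 in MN+glia, -0.05 in glia and 0.02 in MN (SE 0.13). The MN+glia difference at 5d was 1.54 without the degraded array and its step with age -0.08.

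CG10725 differed more in old flies than in young ones. In glia flies at 5d the arrays read 8.002, 7.96 and 7.88 in dSOD1 and 9.27, 9.23 and 9.30 in G85R. At 45d they read 8.10, 8.37 and 7.79 in dSOD1 and 10.80, 10.48 and 10.87 in G85R. The G85R arrays at 45d lay above all others, and the dSOD1 arrays of both ages overlapped. In MN+glia flies the G85R arrays went from 9.41, 9.08 and 9.54 to 10.36, 10.47 and 10.43, and the dSOD1 arrays from 8.34, 8.12 and 8.28 to 8.45, 8.47 and 8.33. In MN flies the G85R means were 8.77 at 5d and 9.16 at 45d, beside 7.56 and 7.54 in dSOD1. The difference between the lines therefore grew with age by 1.32 in glia, 0.90 in MN+glia and 0.41 in MN (SE 0.17), to a 6.21-fold difference in glia flies at 45d. At 5d it hardly moved between drivers, with 1.31 in glia, 1.21 in MN and 1.095 in MN+glia (SE 0.12), the last becoming 1.23 without the degraded array, which makes the step with age in MN+glia 0.77.

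CG2772, the predicted lipase, varied with the driver as much as with the line. In MN flies at 5d the arrays read 6.83, 6.73 and 6.99 in dSOD1 and 7.95, 8.07 and 8.21 in G85R. In glia flies of the same age they read 4.76, 4.55 and 4.52 in dSOD1 and 6.52, 6.29 and 6.55 in G85R. In MN+glia flies they read 5.64, 5.56 and 5.69 in dSOD1 and 7.28, 7.62 and 7.09 in G85R. G85R glia flies therefore lay below dSOD1 MN flies, and the ranges of the lines overlap over all 36 arrays although they do not within any driver and age. The difference was 1.84 and 1.96 in glia flies (5d and 45d, SE 0.13), beside 1.22 and 1.14 in MN flies. In MN+glia flies it was 1.70 at 5d, or 1.56 without the degraded array, and 1.35 at 45d. In both lines and at both ages the order of the mean levels was MN, MN+glia, glia, with every pair of neighbours in that order further apart than the largest SD within a group, 0.31.

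CG15818, the lectin gene, shared the low level in glia flies. At 45d the arrays of glia flies read 5.32, 5.61 and 5.20 in dSOD1 and 6.70, 6.43 and 6.73 in G85R. Those of MN flies read 6.55, 6.75 and 6.73 in dSOD1 and 8.27, 8.27 and 8.06 in G85R. Levels in MN+glia flies, with means of 6.86 in dSOD1 and 7.87 in G85R at 45d, stood near those in MN flies. The difference between the lines ran from 1.003 (MN+glia at 45d) to 1.53 (MN at 45d), with an SE of 0.13, and was 1.38 in MN+glia at 5d, or 1.23 without the degraded array.

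**Figure D2:**
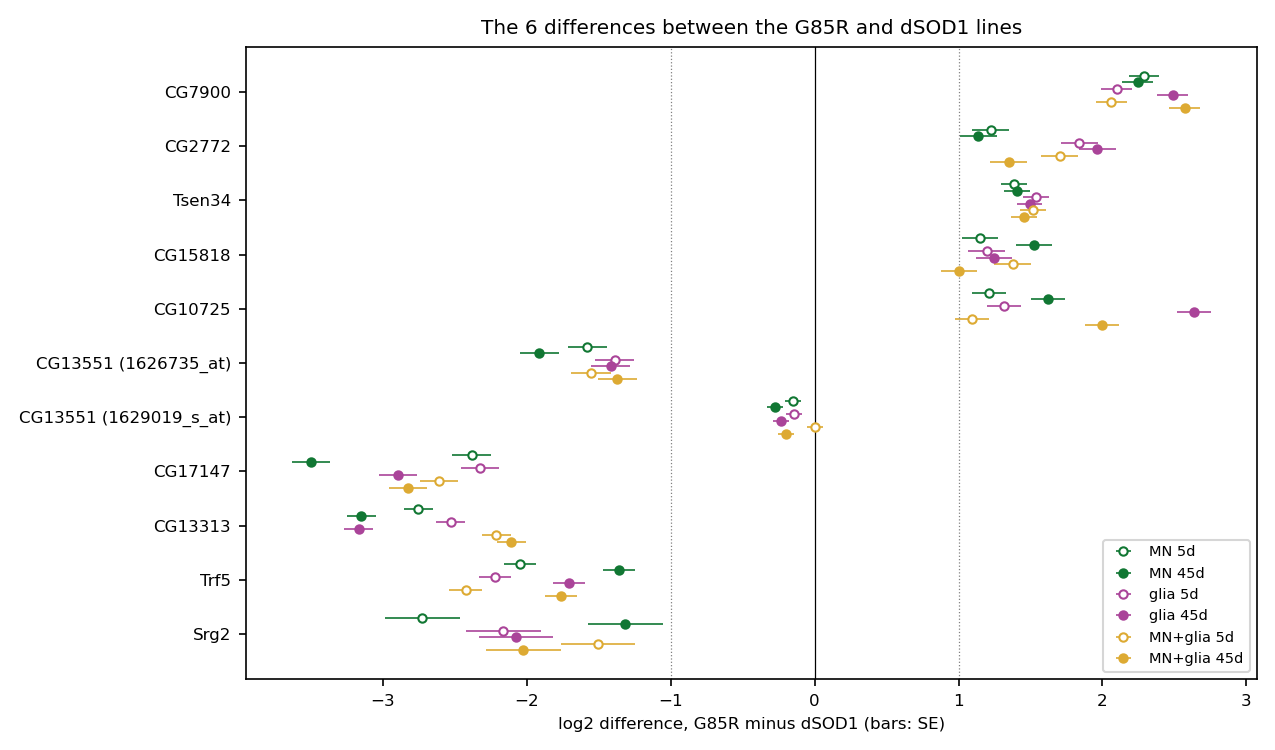
Log2 difference between G85R and dSOD1 flies (horizontal axis, bars are SE from the limma fit) for each probe set in the 6 combinations of driver (colour) and age (open at 5d, filled at 45d), with dotted lines at a 2-fold difference. The differences of Tsen34 lie within 0.15 of each other, those of CG10725 spread over 1.54, and those of CG13551 at 1629019_s_at lie between -0.27 and 0.01.

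CG17147, which like CG10725 has chitin-binding domains, was among the lowest of the 10 in mutant flies relative to controls. In MN flies the dSOD1 arrays read 6.88, 6.67 and 6.86 at 5d and 8.17, 8.08 and 8.22 at 45d. The G85R arrays of the same driver read 4.49, 4.42 and 4.35 at 5d and 4.53, 4.54 and 4.89 at 45d. Over all drivers the 18 G85R arrays stayed between 4.15 and 4.89, with a median of 4.44, and the 18 dSOD1 arrays between 6.49 and 8.22, so the lines were 1.60 apart at their closest. Whether these G85R values lie above background was not tested. The difference ran from -2.32 in glia flies at 5d to -3.50 in MN flies at 45d (SE 0.13), which is an 11.3-fold difference. It widened with age by 0.21 in MN+glia, 0.57 in glia and 1.12 in MN (SE 0.19), and in each case the larger step was in the dSOD1 flies: their mean moved by 0.30, 0.89 and 1.35, beside 0.09, 0.32 and 0.23 in G85R flies (SE 0.13). Once the degraded array was left out, the MN+glia difference at 5d was -2.72, the widening with age there 0.10, and the step of the G85R mean 0.20.

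Trf5 showed the reverse order in time. Between 5d and 45d the dSOD1 means of MN flies went from 6.45 to 5.79, those of glia flies from 6.75 to 5.94 and those of MN+glia flies from 6.76 to 6.16. The G85R means stood at 4.40 and 4.43 in MN, 4.53 and 4.23 in glia, and 4.34 and 4.40 in MN+glia, and whether they lie above background was not tested. The arrays of the lines were at least 0.96 apart. The difference was therefore larger in young flies, -2.05, -2.22 and -2.42 for MN, glia and MN+glia at 5d against -1.36, -1.71 and -1.76 at 45d (SE 0.11). The step between ages was 0.66 in MN+glia, 0.52 in glia and 0.69 in MN (SE 0.16), all in the same direction. In MN+glia flies at 5d the difference was -2.43 without the degraded array, and the step 0.67.

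CG13313 was higher in G85R flies of the combined driver than in those of either driver alone. At 45d the G85R arrays read 5.08, 4.93 and 5.45 in MN, 5.07, 5.20 and 5.05 in glia, and 6.47, 6.19 and 6.48 in MN+glia flies. The dSOD1 arrays at that age read 8.23, 8.39 and 8.29 in MN, 8.28, 8.23 and 8.32 in glia, and 8.54, 8.43 and 8.51 in MN+glia flies. Controls of the 3 drivers thus lay within a narrow band, and the MN+glia G85R arrays stood between the lines. The difference at 45d was -2.11 in MN+glia, -3.17 in glia and -3.15 in MN flies (SE 0.10), so that MN+glia was 1.04 nearer to 0 than MN and 1.06 nearer than glia (SE 0.14). At 5d the differences were -2.75, -2.53 and -2.21, or -2.28 for MN+glia without the degraded array.

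Srg2 had the widest spread among the arrays of a group. In MN flies the G85R arrays read 6.10, 5.63 and 6.06 at 5d and 7.42, 7.76 and 7.17 at 45d. The dSOD1 arrays read 8.79, 8.48 and 8.69 at 5d and 8.65, 8.90 and 8.74 at 45d. Old MN flies were nearest to controls on all arrays, with a difference of -1.32, against -2.73 in young ones (SE 0.26). In MN+glia flies at 5d the G85R arrays read 5.11, 6.70 and 6.52, an SD of 0.87, and the difference of -1.50 became -1.80 (SE 0.27) without the degraded array, which is the highest of the 3. Without replicate 1, the lowest, it became -1.01 (SE 0.21), nearer to 0 than in old MN flies.

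CG13551, the predicted ATP synthase inhibitor, differed between the lines by unlike amounts at its 2 probe sets. At 1626735_at the 18 dSOD1 arrays ran from 5.03 to 6.13 with a median of 5.48, and the 18 G85R arrays from 3.71 to 4.30 with a median of 4.01. The lines did not overlap, and the 6 differences lay between -1.37 and -1.91 (SE 0.14), with -1.55 in MN+glia at 5d, or -1.57 without the degraded array. At 1629019_s_at the dSOD1 arrays ran from 11.56 to 11.90 and the G85R arrays from 11.41 to 11.85, with overlap. Here the differences were -0.15 and -0.27 in MN, -0.14 and -0.24 in glia, and 0.01 and -0.20 in MN+glia flies at 5d and 45d (SE 0.056). The highest G85R value, 11.85, came from the degraded array, and without it the MN+glia difference at 5d was -0.09. The differences at 1629019_s_at thus reached at most 1.21-fold, where those at 1626735_at were at least 2.59-fold, and which transcripts each probe set reads was not analysed here. In the RefSeq annotation of Release 6 the gene overlaps yellow-d and yellow-d2.

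Ranges of the 18 G85R and 18 dSOD1 arrays did not overlap for 7 of the 11 probe sets (CG7900, Tsen34, CG10725, CG17147, CG13313, Trf5 and CG13551 at 1626735_at), where 54 of all probe sets did so (0.288%). They overlapped for CG2772, CG15818, Srg2 and 1629019_s_at. The share is printed for scale only, since the overlap depends on the same line differences that chose the genes. The variation among the 12 group means was split into line, age, driver and their interactions. Line took 97.6% for CG7900, 95.4% for CG13551 at 1626735_at, 93.2% for CG17147, 92.5% for both Trf5 and CG13313, and 90.7% for Tsen34. It took 79.6% for Srg2, with 13.6% for age, and 69.2% for CG10725, with 14.6% for driver and 7.25% for interactions of line with age or driver. For CG2772 and CG15818, driver took the larger share, 54.3% and 47.2%, beside 42.7% and 41.5% for line. The median over all probe sets was 3.17% for line, 28.7% for age and 21.8% for driver, and the contrast with the 10 genes is fixed by how they were chosen.

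**Figure D3:**
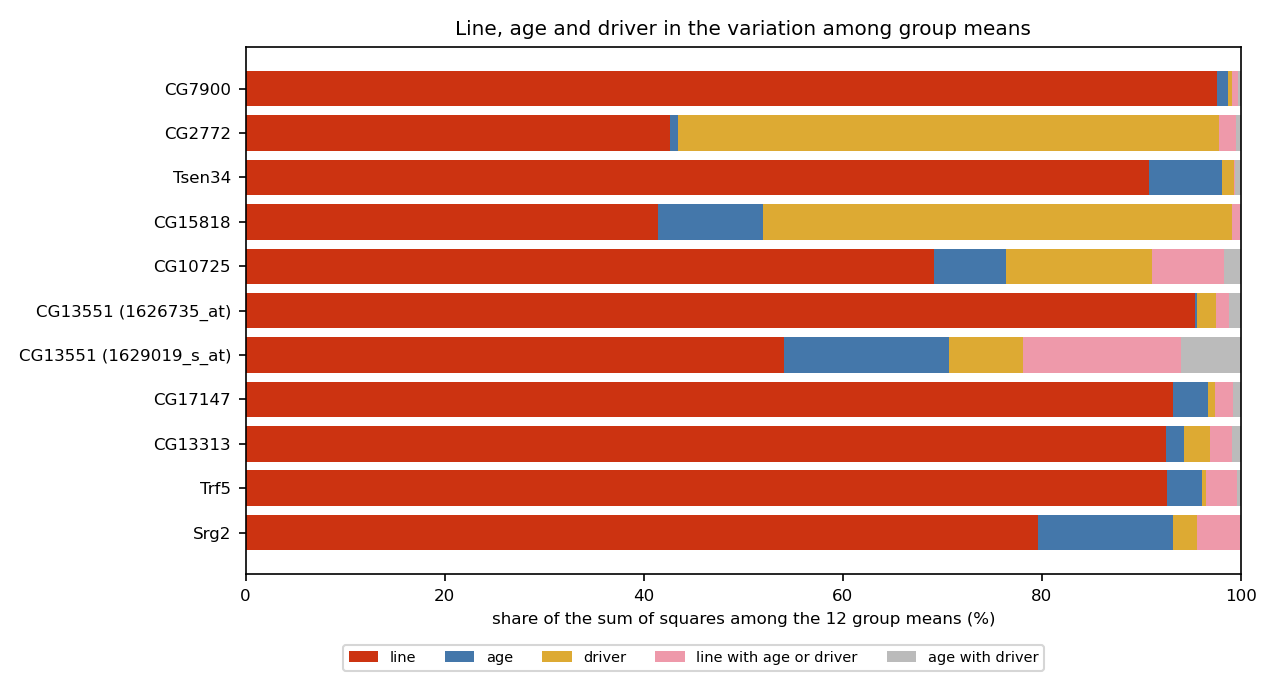
Share of the sum of squares among the 12 group means (horizontal axis, percent) that falls to line, age, driver, interactions of line with age or driver, and the interaction of age with driver, for each probe set. Line fills 97.6% of the bar of CG7900 and 42.7% of that of CG2772, where driver fills 54.3%.

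Age and driver were tested on the mean of the lines, a quantity that the choice of genes did not use. Its SE comes from the same fit as the 6 differences, so shares of all probe sets are printed for scale only. Between 5d and 45d in MN flies, limma called 9 of the 11 probe sets at an adjusted p of at most 0.05, 7 higher and 2 lower in old flies, where it called 52.0% of all probe sets, 29.4% higher and 22.6% lower. In glia flies it called 8, 6 higher and 2 lower (47.7% of all, 26.8% and 20.9%), and in MN+glia flies 8, 6 higher and 2 lower (44.9% of all, 24.7% and 20.2%), or 9 without the degraded array (45.6%).

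On the mean of the lines, Tsen34 and Trf5 were the genes that fell with age, each with all 3 drivers. Tsen34 fell by 0.59 in MN flies (SE 0.063, limma adjusted p = 2.6e-09), by 0.34 in glia flies (adjusted p = 3.8e-05) and by 0.33 in MN+glia flies (adjusted p = 6.6e-05). Trf5 fell, in the same order, by 0.31 (SE 0.080, limma adjusted p = 0.0012), 0.55 (adjusted p = 6.5e-07) and 0.27 (adjusted p = 0.0057). In Trf5 most of that step lay in the dSOD1 flies, as described above, and in Tsen34 both lines moved alike.

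On the mean of the lines, CG15818 and Srg2 rose with age with all 3 drivers. CG15818 rose by 0.71 in MN flies (SE 0.090, limma adjusted p = 5.9e-08), by 0.64 in glia flies (adjusted p = 4.2e-07) and by 0.54 in MN+glia flies (adjusted p = 7.4e-06). Srg2 rose, in the same order, by 0.82 (SE 0.18, limma adjusted p = 3.4e-04), 0.75 (adjusted p = 0.0010) and 0.88 (adjusted p = 1.8e-04). By line, Srg2 moved in MN by 1.52 in G85R and 0.11 in dSOD1 flies, and in glia by 0.79 and 0.70 (SE 0.26). In MN+glia it moved by 0.62 and 1.14, with 0.91 for G85R flies without the degraded array. The other genes were called with 1 or 2 of the drivers. CG17147 rose by 0.79 in MN flies (SE 0.094, limma adjusted p = 1.6e-08) and by 0.60 in glia flies (adjusted p = 2.4e-06). Its step in MN+glia flies was 0.19 (limma adjusted p = 0.095), or 0.25 (adjusted p = 0.033) without the degraded array. CG10725 rose by 0.79 in glia flies (SE 0.084, limma adjusted p = 2.3e-09) and by 0.63 in MN+glia flies (adjusted p = 2.4e-07), with a step of 0.18 in MN flies (adjusted p = 0.075). CG13313 rose by 0.73 in MN+glia flies (SE 0.071, limma adjusted p = 4.3e-10) and by 0.27 in glia flies (adjusted p = 0.0021), with 0.12 in MN flies (adjusted p = 0.17).

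CG7900 and CG2772 rose in MN flies, by 0.41 (SE 0.075, limma adjusted p = 2.2e-05) and 0.37 (SE 0.091, adjusted p = 0.0011). In MN+glia flies their steps were 0.18 (limma adjusted p = 0.048) and 0.26 (adjusted p = 0.020), and the call of CG7900 was lost in 19 alternative settings. In glia flies they were 0.12 and -0.01, neither called. For CG7900 these averages join unlike steps of the lines. In G85R flies it moved by 0.31 in glia and 0.44 in MN+glia, and in dSOD1 flies by -0.08 and -0.07 (SE 0.11). The G85R step in MN+glia was 0.56 without the degraded array. CG13551 rose at 1629019_s_at by 0.13 in both MN and glia flies (SE 0.040, limma adjusted p = 0.0059 and 0.0070), and its step at 1626735_at in MN flies, 0.23, stood at the threshold (SE 0.096, adjusted p = 0.047).

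Leaving out the degraded array made the steps in MN+glia flies 0.24 for CG7900 (limma adjusted p = 0.0073), 0.33 for CG2772 (adjusted p = 0.0026) and 1.02 for Srg2 (adjusted p = 1.8e-05). They were 0.61 for CG15818, 0.56 for CG10725, 0.76 for CG13313, -0.34 for Tsen34 and -0.27 for Trf5, each called as on all arrays.

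The test of the difference in age change between drivers called 3 probe sets between MN+glia and MN, 2 higher and 1 lower (5.79% of all probe sets, 2.06% and 3.73%). The change of CG13313 was larger in MN+glia flies by 0.61 (SE 0.10, limma adjusted p = 1.4e-04) and that of CG10725 by 0.44 (SE 0.12, adjusted p = 0.022), and for CG17147 the difference was -0.60 (SE 0.13, adjusted p = 0.0047). Between glia and MN it called 1, higher in glia (4.95% of all, 2.17% higher and 2.78% lower), CG10725, with 0.61 (SE 0.12, limma adjusted p = 0.0012). Between MN+glia and glia it called 1, higher in MN+glia (2.90% of all, 1.19% and 1.71%), CG13313, with 0.46 (SE 0.10, limma adjusted p = 0.0060). In the comparisons with MN+glia the same 3 genes were called when the degraded array was left out, with 0.64 for CG13313, 0.38 for CG10725 (limma adjusted p = 0.040) and -0.54 for CG17147 against MN, and 0.49 for CG13313 against glia.

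**Figure D4:**
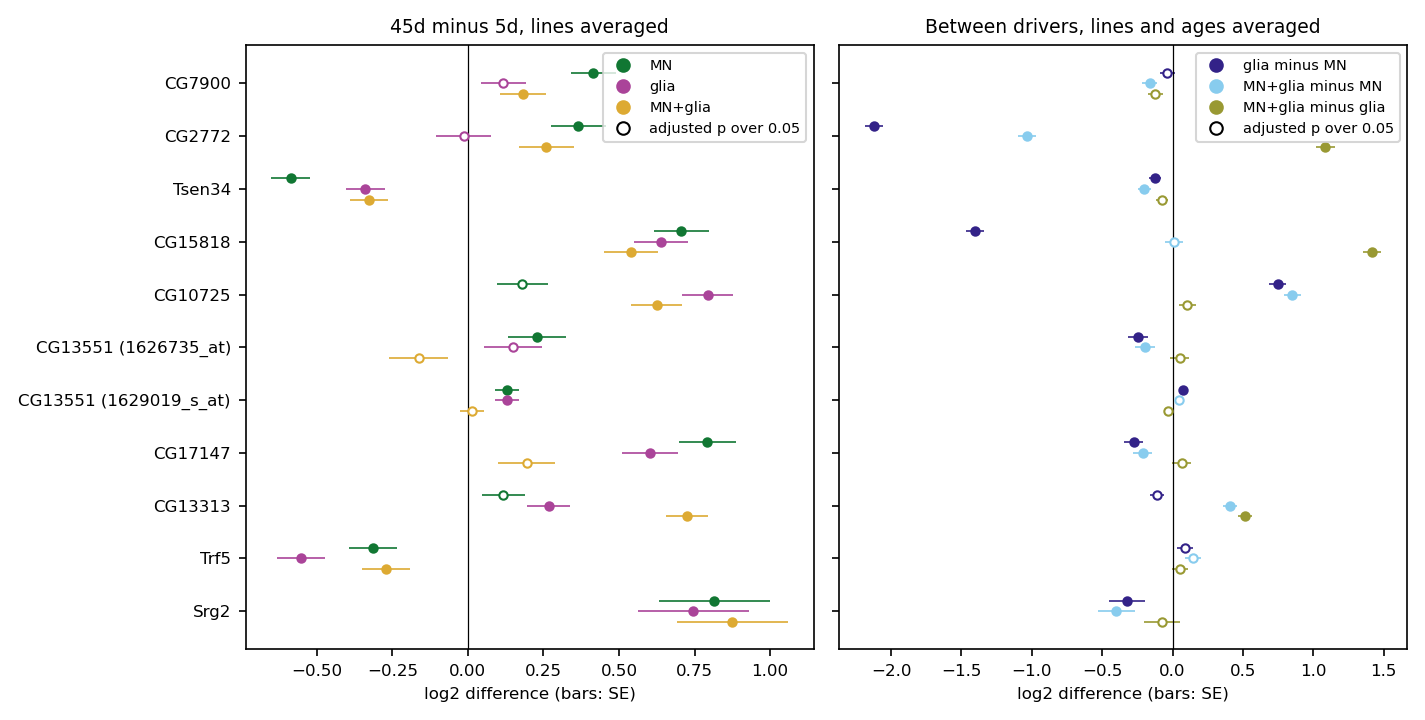
Log2 change from 5d to 45d averaged over the lines for each driver (left) and difference between drivers averaged over lines and ages (right), with SE bars from the limma fit; filled points passed an adjusted p of at most 0.05 over 18769 probe sets. Tsen34 and Trf5 lie left of 0 at every driver, and CG2772 and CG15818 lie at -2.12 and -1.41 between glia and MN.

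Between glia and MN flies, ages and lines averaged, limma called 8 of the 11 probe sets, 2 higher and 6 lower in glia, where 42.7% of all were called (24.9% higher and 17.8% lower). CG2772 was lower in glia flies, with a difference of -2.12 (SE 0.065, limma adjusted p = 3.8e-22), which is 4.35-fold, as was CG15818, with -1.41 (SE 0.063, adjusted p = 9.1e-18). CG10725 was higher in glia flies by 0.75 (SE 0.060, limma adjusted p = 1.0e-11). The remaining 5 calls were of 0.33 or less in size. Between MN+glia and MN flies 8 were called, 2 higher and 6 lower in MN+glia (30.2% of all, 18.3% and 11.9%). For CG2772 the difference was -1.04 (SE 0.065, limma adjusted p = 4.9e-14), for CG10725 0.85 (adjusted p = 8.3e-13) and for CG13313 0.40 (adjusted p = 1.2e-07), while that of CG15818 was 0.01 (SE 0.063, adjusted p = 0.92). The same 8 were called when the degraded array was left out, with -1.07 for CG2772, 0.88 for CG10725 and 0.39 for CG13313, and CG15818 stood at -0.02. Between MN+glia and glia flies 3 were called, all higher in MN+glia (46.8% of all, 21.6% higher and 25.2% lower). These were CG15818 by 1.42 (SE 0.063, limma adjusted p = 1.2e-17), CG2772 by 1.09 (adjusted p = 1.3e-14) and CG13313 by 0.51 (adjusted p = 7.5e-10). Without the degraded array 6 were called (48.4% of all), the additional ones being CG7900, CG10725 and 1629019_s_at with differences of -0.15, 0.14 and -0.06, beside 1.38 for CG15818, 1.05 for CG2772 and 0.50 for CG13313.

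Other genes of the same families were followed through lists written out by hand. Of 39 measured genes with peritrophin-type chitin-binding domains other than CG10725 and CG17147 (41 probe sets), 4 probe sets were higher and 2 lower in G85R flies in MN at 5d, where limma called 7.99% of all probe sets at an adjusted p of at most 0.05 (4.35% higher and 3.64% lower). At 45d in MN 3 were higher and 1 lower (10.0% of all, 5.18% and 4.84%). In glia 3 were higher and 1 lower at 5d (5.63% of all, 2.70% and 2.93%) and 7 higher and 2 lower at 45d (9.97% of all, 4.89% and 5.09%). In MN+glia 5 were higher and 1 lower at 5d (13.9% of all, 6.05% and 7.82%), or 3 and 1 without the degraded array (6.51% of all, 2.93% and 3.58%), and 4 higher and 2 lower at 45d (7.03% of all, 3.02% and 4.01%). The median difference of the list lay between -0.05 and 0.14, beside medians over all probe sets between -0.01 and 0.02. CG6996 fell in all 6 comparisons, by 0.86 in MN at 5d and by 0.33 in glia at 45d (SE 0.10). Peritrophin-15a, which codes for a protein of the gut lining, rose in 5 and Peritrophin-15b in 3, with means over the 6 comparisons of 0.36 and 0.53. In MN+glia at 5d the rise of Peritrophin-15a was 0.37 (limma adjusted p = 0.0058) on all arrays and its difference 0.28 (adjusted p = 0.080) without the degraded array.

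The lipase list held 42 measured genes other than CG2772 (43 probe sets), among them the yolk protein genes Yp1, Yp2 and Yp3. Of its probe sets, 4 were higher and 4 lower in MN at 5d (7.99% of all probe sets were called) and 4 higher and 5 lower at 45d (10.0%). In glia 3 were higher and 1 lower at 5d (5.63%) and 5 higher and 6 lower at 45d (9.97%). In MN+glia 4 were higher and 6 lower at 5d (13.9%), or 3 and 2 without the degraded array (6.51%), and 5 higher and 2 lower at 45d (7.03%). The median difference of the list lay between -0.06 and 0.07. The predicted lipase CG11598 rose in all 6, by 0.82 and 0.64 in MN flies and by 3.07 to 3.35 in glia and MN+glia flies (SE 0.092). CG3635 was called lower in 3 and CG7329 in 4.

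Of 27 measured C-type lectin genes other than CG15818, 5 were higher and 4 lower in MN at 5d (7.99% of all probe sets were called) and 3 higher and 7 lower at 45d (10.0%). In glia 5 were higher and 4 lower at 5d (5.63%) and 2 higher and 3 lower at 45d (9.97%). In MN+glia 6 were higher and 6 lower at 5d (13.9%), or 5 and 3 without the degraded array (6.51%), and 6 higher and 2 lower at 45d (7.03%). The calls thus ran in both directions in every comparison, and the median difference of the list lay between -0.12 and 0.05. By size of the mean, lectin-24A led, called lower in 4 comparisons with a mean of -0.94, then CG14500, called higher in 4 with a mean of 0.71, and lectin-33A, called lower in 4 with a mean of -0.53. The most regular calls, picked after their values were seen, were of slf, lectin-24Db and lectin-29Ca. Higher in all 6 was slf with a mean of 0.46, and lectin-24Db in 5 with a mean of 0.32. In the other direction, lectin-29Ca was called lower in 5 with a mean of -0.28. The calls of slf and lectin-24Db in MN+glia at 5d were kept without the degraded array, at 0.45 and 0.41. For lectin-29Ca the difference there was -0.26 on all arrays.

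Of 6 measured genes of tRNA splicing and ligation other than Tsen34, between 0 and 2 were called in each comparison (5.63% to 13.9% of all probe sets). Tsen54, another subunit of the same endonuclease, rose in 5 comparisons, by 0.32 to 0.46 (SE 0.087), and was 0.21 higher in the sixth, MN+glia at 5d (limma adjusted p = 0.10). The other call, named after its value was seen, was of Archease, a factor of tRNA ligation, lower in glia at 45d with -0.31 (SE 0.083, limma adjusted p = 0.012). Tsen15 had a mean of -0.23 and was called in no comparison. Of 14 probe sets for 12 genes of the ATP synthase other than CG13551, limma called 0 in every comparison, and at most 2 had an unadjusted p under 0.05 in any of them. Of 7 amidases and related hydrolases other than CG7900, 2 were called higher in MN at 5d (7.99% of all probe sets), 1 higher and 1 lower in MN at 45d (10.0%), and 1 higher in each of the other comparisons (5.63% to 13.9%), or 0 in MN+glia at 5d without the degraded array.

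In the order of measured genes on the chromosome, genes of the same family lie beside 3 of the 10 genes. Genes without a probe set of 1 gene symbol are not part of that order and may lie between. CG7910, next to CG7900 on arm 3R and in the same amidase family, had differences between -0.07 and 0.16 and was called in none of the 6 comparisons. CG17145, next to CG17147 on 3L, had differences between -0.11 and 0.21 and was called in none. CG10154 and CG10140 lie on either side of CG10725 on 3L. CG10140 was 0.95 higher in G85R glia flies at 45d (SE 0.094, limma adjusted p = 8.9e-09) and 0.42 higher in MN+glia flies at 45d (adjusted p = 0.0032), the groups in which CG10725 differed most, and between 0.14 and 0.20 in the others. CG10154 was 0.34 higher in MN+glia flies at 45d (limma adjusted p = 0.013) and was not called elsewhere.

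Over all 10 genes, 21 probe sets belong to the nearest measured gene on either side. None of the 21 was called at 2-fold in any comparison (1.17% of all probe sets were), although 8 were called in at least 1 comparison without regard to size (28.7% of all). Their median absolute mean over the 6 comparisons was 0.046, beside 0.045 over all probe sets. Within 5 measured genes on each side, 2 of 110 probe sets were called at 2-fold in any comparison, CG17177, the fifth gene from Tsen34, and CG13813, the second from CG17147, chosen for mention after their values were seen. CG17177 had a mean of -1.25, opposite in sign to Tsen34, and CG13813 a mean of -0.50, of the same sign as CG17147. Without regard to size, the neighbours called in 5 or 6 comparisons were CG17233, CG6996 and CG5958. Near CG17147 and of its sign were CG17233 and CG6996, with means of -0.52 and -0.49. Near CG15818 and opposite to it in sign was CG5958, with a mean of -0.51. Trl, whose annotated span overlaps Tsen34, had a mean of -0.21, Tmtc1, which overlaps Trf5, a mean of 0.01, the 3 probe sets of dpr6, which overlaps Srg2, means between -0.01 and 0.04, and yellow-d and yellow-d2, which overlap CG13551, means of -0.05 each. By arm, 5 of the 10 genes lie on 3L, 3 on 2L, 1 on 2R, 1 on 3R and 0 on X, where the measured genes fall 19.7%, 18.5%, 20.4%, 25.0% and 15.7%. Which of the UAS insertions lies where was not analysed here.

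**Figure D5:**
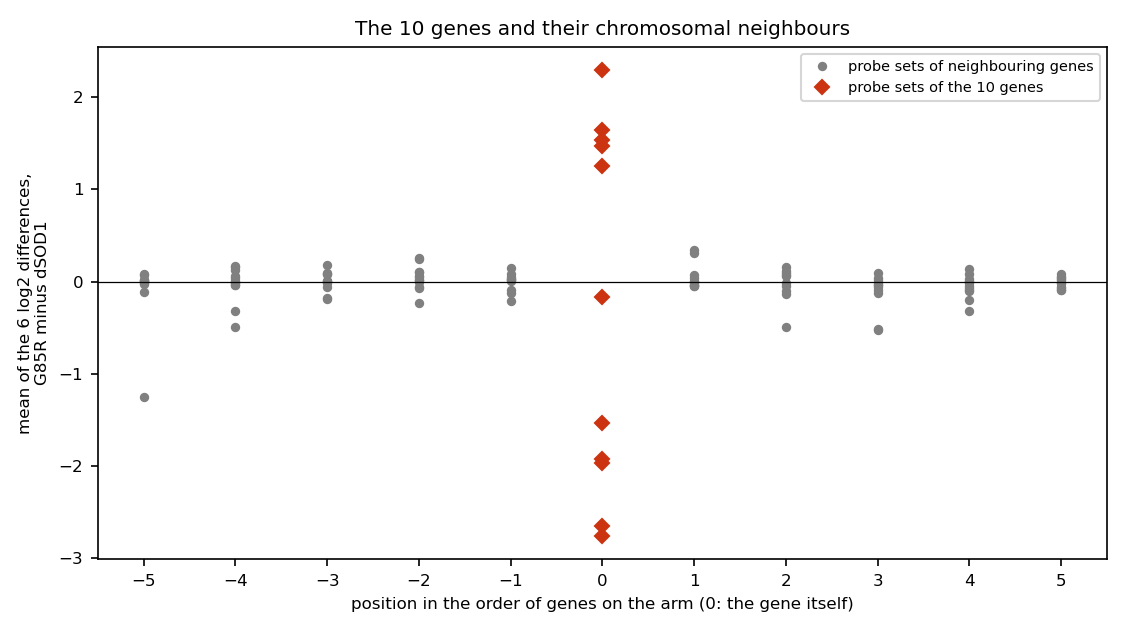
Mean of the 6 log2 differences between G85R and dSOD1 flies (vertical axis) for the probe sets of the 10 genes (diamonds at 0) and of the 5 nearest measured genes on each side (dots, by their place in the order of genes). Beside the nearest genes, whose means lie between -0.21 and 0.34, the probe sets of the 10 genes lie from -2.76 to 2.29.

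The genes most like each of the 10 over the 36 arrays were found by Pearson's r, as a description without a test, since the arrays share lines, ages and drivers. For CG7900 they were mthl8 (r = 0.97) and CG42565 (0.94), and for Tsen34 CG13675 (0.94) and the cuticle protein gene Cpr51A (0.92). For CG2772 they were the serine protease gene Jon25Biii (0.96) and the esterase gene alpha-Est2 (0.90). For CG15818 they were sima, the fly hypoxia-inducible factor, and Pdp1, a transcription factor of the circadian clock (0.91 and 0.90), which differed between lines by 0.31 and 0.47 on average. For CG10725 they were CG18404 and Ir76a (0.89 each). Among the genes lower in mutant flies, ome was near to both CG17147 (0.96) and CG13313 (0.95), and CG30411 to both CG17147 (0.95) and CG13551 at 1626735_at (0.95). The next for that probe set of CG13551 was CG1090 (0.94), and for 1629019_s_at the nearest were AOX3 and Gr47a (0.87 each). For CG13313 a probe set of lola, a transcription factor of axon growth, stood nearest (0.96), with a mean difference of -1.74. For Trf5 they were Ube3a, a ubiquitin ligase (0.95), and CG10764 (0.92), and for Srg2 CG31380 (0.93) and Marc (0.92).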

How the data were processed

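RNA from whole adult males in pools of 40 flies was measured on 36 Affymetrix Drosophila Genome 2.0 arrays in 12 groups of 3, as the sample labels give them. The deposited log2 values were produced by the authors through RMA in the Robin software, which subtracts background, equalises the distributions of the arrays and summarises probes per probe set; a quantile step of this kind can pull large shared shifts toward 0. Array medians ran from 6.38 to 6.53, and no further normalization was applied. The genome build behind the array design is not given in the sources used here, and probe sets were named from the platform annotation, updated through RefSeq gene IDs (13544 of 13647 probe sets with 1 gene symbol matched, 402 have several symbols and 4720 none). RefSeq Release 6 gave only names, arms and neighbours.

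Control probe sets (183 of 18952) were left out. With R 4.3.3 and limma 3.58.1, a model with 1 mean for each group was fitted over the 36 arrays together (residual degrees of freedom 24, prior 5.77), and p values were adjusted over 18769 probe sets by Benjamini-Hochberg within each comparison, with a threshold of 0.05. The SE pools the spread over all groups. Tests on the 10 genes used means over the 2 lines, which are orthogonal to the 6 differences that chose them. The arrays are labelled as biological replicates, and nothing further is known of how flies were split. On simulated data for the age change in MN, with 200 of 18769 probe sets changed, 96% of 100 changed 1.5-fold and 100% of 100 changed 2-fold were found, with 11 false calls. The simulated noise was independent between arrays and probe sets, and steps under 1.5-fold were not simulated. On the real arrays 52.0% of probe sets were called for this change, so the simulated rates do not carry over to them.

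The genes, the gene lists (153 genes written out by hand, 140 measured) and the tests were chosen with earlier results of these data known. Named besides the 10 genes are probe sets next to the 2-fold limit, nearest measured neighbours, per list up to 3 relatives with the largest absolute mean difference among those with calls of 1 sign in at least 3 comparisons, and the 2 genes most like each. Any further gene in the text was picked with its values in view. Alternatives were renormalizing the values by quantiles or by cyclic loess, removing dim probe sets, an eBayes trend, array weights, the replicate number as a block, fitting age on arrays of 1 driver, and dropping every array once. The study's methods leave out 1 array of 5d M1B::G85R flies for degraded RNA, whereas the array with that sign here is labelled MN+glia. Sequences of the genes were not used here.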

Additional observations from a re-analysis of the deposited data

Results flagged for a closer look

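In 3 of the 10 genes the change from 5d to 45d, averaged over the lines, differed between drivers by a limma test of the difference itself (adjusted over 18769 probe sets). Of all probe sets, it called 4.95% between glia and MN, 5.79% between MN+glia and MN and 2.90% between MN+glia and glia. A share over the 3 comparisons together is not given, so the count of 3 genes has no matching share beside it. For CG10725 the change was larger by 0.61 in glia than in MN (adjusted p = 0.0012) and by 0.44 in MN+glia than in MN (adjusted p = 0.022), or by 0.38 without the degraded array. For CG17147 the change in MN+glia minus that in MN was -0.60 (limma adjusted p = 0.0047), and -0.54 without that array. For CG13313 the change was larger in MN+glia by 0.61 than in MN (limma adjusted p = 1.4e-04) and by 0.46 than in glia (adjusted p = 0.0060). Averaging hides that the lines contributed unequally: in glia the mean of CG10725 moved by 1.45 with age in G85R flies and by 0.13 in dSOD1 flies, whereas in MN that of CG17147 moved by 0.23 in G85R flies and by 1.35 in dSOD1 flies (SE 0.12 and 0.13). CG13313 moved by 0.78 in G85R (0.84 without the degraded array) and 0.67 in dSOD1 flies in MN+glia, but by -0.05 and 0.59 in glia (SE 0.10).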

How the results depend on the processing

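No called change or count turned its direction under any alternative. Among the differences given without a test, 1 turned: that of CG13551 at 1629019_s_at in MN+glia at 5d, 0.01 on all arrays, fell below 0 in 4 settings, to -0.09 without the degraded array and -0.07 with array weights. Of the 10 probe sets at least 2-fold apart in all 6 comparisons, 9 to 10 remained so when 1 array was left out, 9 with array weights, and 9 with the filter on dim probe sets, which removed CG13551 at 1626735_at. With array weights the calls for a difference in age change rose from 3 to 5 (MN+glia against MN), from 1 to 2 (MN+glia against glia) and from 1 to 4 (glia against MN). Leaving out 1 array gave 1 to 2 for each of the latter pair. Between MN+glia and glia flies 3 calls became 5 with quantile normalization, cyclic loess or array weights, and 3 to 6 without 1 array. Calls among relatives (138 probe sets) went from 26 to 52 in MN at 45d, from 19 to 31 in glia at 5d and from 28 to 43 in glia at 45d with array weights. Without 1 array they ran from 16 to 35 in MN at 45d and from 17 to 43 in MN+glia at 5d, beside 29 on all arrays. There, leaving out replicate 3 of dSOD1 gave 19 and replicate 2 of G85R gave 17. Of 2080 refits of single age and driver calls, 80 lost the call, in 8 results. Those of CG7900 with age in MN+glia (19 settings), CG13551 at 1626735_at with age in MN (22) and Srg2 between glia and MN (18) are the least firm. With the replicate number as a block, the age calls were 8 for each driver, beside 9, 8 and 8 without it, and no count moved by more than 1.5 times. Arrays of the same number share only a number, with a median correlation of their deviations of -0.0076 over 198 pairs, and 12 of 36 arrays correlated best with their own number. The table holds no detection calls, so whether low values such as those of CG17147, Trf5 and CG13551 in G85R flies lie above background was not tested.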
